A study of Solanum tuberosum with 6 samples.

Results

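WRKY and NAC proteins are 2 families of plant transcription factors, and 27 of the 10499 clones on a potato cDNA array carried a name from one of them. The members were found by the words of their annotation. A clone was taken when its name, without the species, held WRKY, NAC, NAM, ATAF or "no apical meristem", and 3 clones of the nascent polypeptide-associated complex, which shares the letters NAC, were left out. This gave 17 WRKY clones and 10 NAC clones, which are described apart. In the deposited table each clone is named after a known protein and its species, and 2 WRKY clones and 1 NAC clone had a name from a potato species. The others came from tobacco, pepper, petunia, soybean, grape, rice and Arabidopsis, so a name does not fix which potato gene was measured.

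The arrays compared leaves of potato (Solanum tuberosum), cultivar PS3, after watering with 75 mL of 150 mM NaCl and after watering with an equal volume of tap water. Plants had been multiplied in vitro and grown in pots of soil and sand for 2 months, under 12 h of light at 21 °C by day and 18 °C by night. The first and second leaves were taken 1 day after watering from one set of plants and 3 days after it from another. Each of 6 arrays carried salt and control leaf RNA of one day in opposite dyes, with 3 biological replicates per day. All plants were of the same cultivar, so nothing here speaks of other genotypes.

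WRKY factors bind W-box elements in promoters and are best known as regulators of pathogen defence, and of senescence and responses to drought and salt. Many are transcribed within minutes to hours of a stimulus, and some act below MAP kinase cascades. NAC factors share a DNA-binding domain named after the petunia gene NAM and the Arabidopsis genes ATAF and CUC. Members of this family set organ boundaries in the shoot meristem, and others act in leaf senescence, wall formation and responses to dehydration and salt.

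Every value below is a log ratio of salt over control as the authors deposited it, with base 2 taken. A value of 1 is then a doubling of the transcript in leaves of salt-watered plants. The direction is likely rather than stated. Control RNA carries the tag of a reference in the labels, while the array titles put control before salt-treated. Day 1 arrays of opposite dye orientation ran the same way across the members (r = 0.81 between replicates 1 and 2 over 24 clones, and r = 0.65 between replicates 2 and 3 over 23). This bears only on whether the arrays share an orientation. It cannot show which one, since ratios of control over salt would correlate equally. A dye effect specific to each clone could produce such a correlation too. Were the deposited ratios control over salt, every rise and fall below would change places. The values are ratios and not levels, so neither the abundance of a clone nor the leaf label itself could be checked. The RNA came from whole leaves, so a change per cell and a change in the make-up of cell types cannot be told apart.

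On both days, replicates 1 and 3 had the salt RNA labelled with Cy3 and replicate 2 had it labelled with Cy5, and the fit therefore held a dye term. Replicate 1 of day 3 differed from the day 1 arrays more than the other day 3 arrays did. Over all clones it correlated with the day 1 arrays at r = 0.03, -0.09 and 0.01, and over the members at 0.08, 0.14 and 0.06. Every correlation over the members leans on the WRKY clone STMIW46. Among the WRKY clones it was the lowest on each day 1 array (-2.31 on replicate 1) and the highest on replicate 1 of day 3 (0.80). No correlation was computed without it, so the low member values need not hold for the other members. Replicates 2 and 3 of day 3 correlated with the day 1 arrays at r between 0.08 and 0.49 over all clones and between 0.55 and 0.84 over the members. Within its own day, replicate 1 correlated over all clones at 0.48 with replicate 2, of opposite dye, and at 0.52 with replicate 3, of the same dye. The day 1 arrays correlated at 0.58 and 0.51 across opposite dyes and at 0.81 within the same dye. Over the members, replicate 1 of day 3 correlated with replicates 2 and 3 at 0.45 and 0.26. The same-dye arrays of day 1 correlated at 0.91 over the members. The day 3 ratios of the members are therefore given without replicate 1 as well. The members were missing more often on day 3: of the 17 WRKY clones 13 were measured on all 6 arrays, and of the 10 NAC clones 7. The precision is limited by how few arrays there are. The test of a day needed values from 2 or more of its arrays and a residual degree of freedom.

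**Figure D1:**
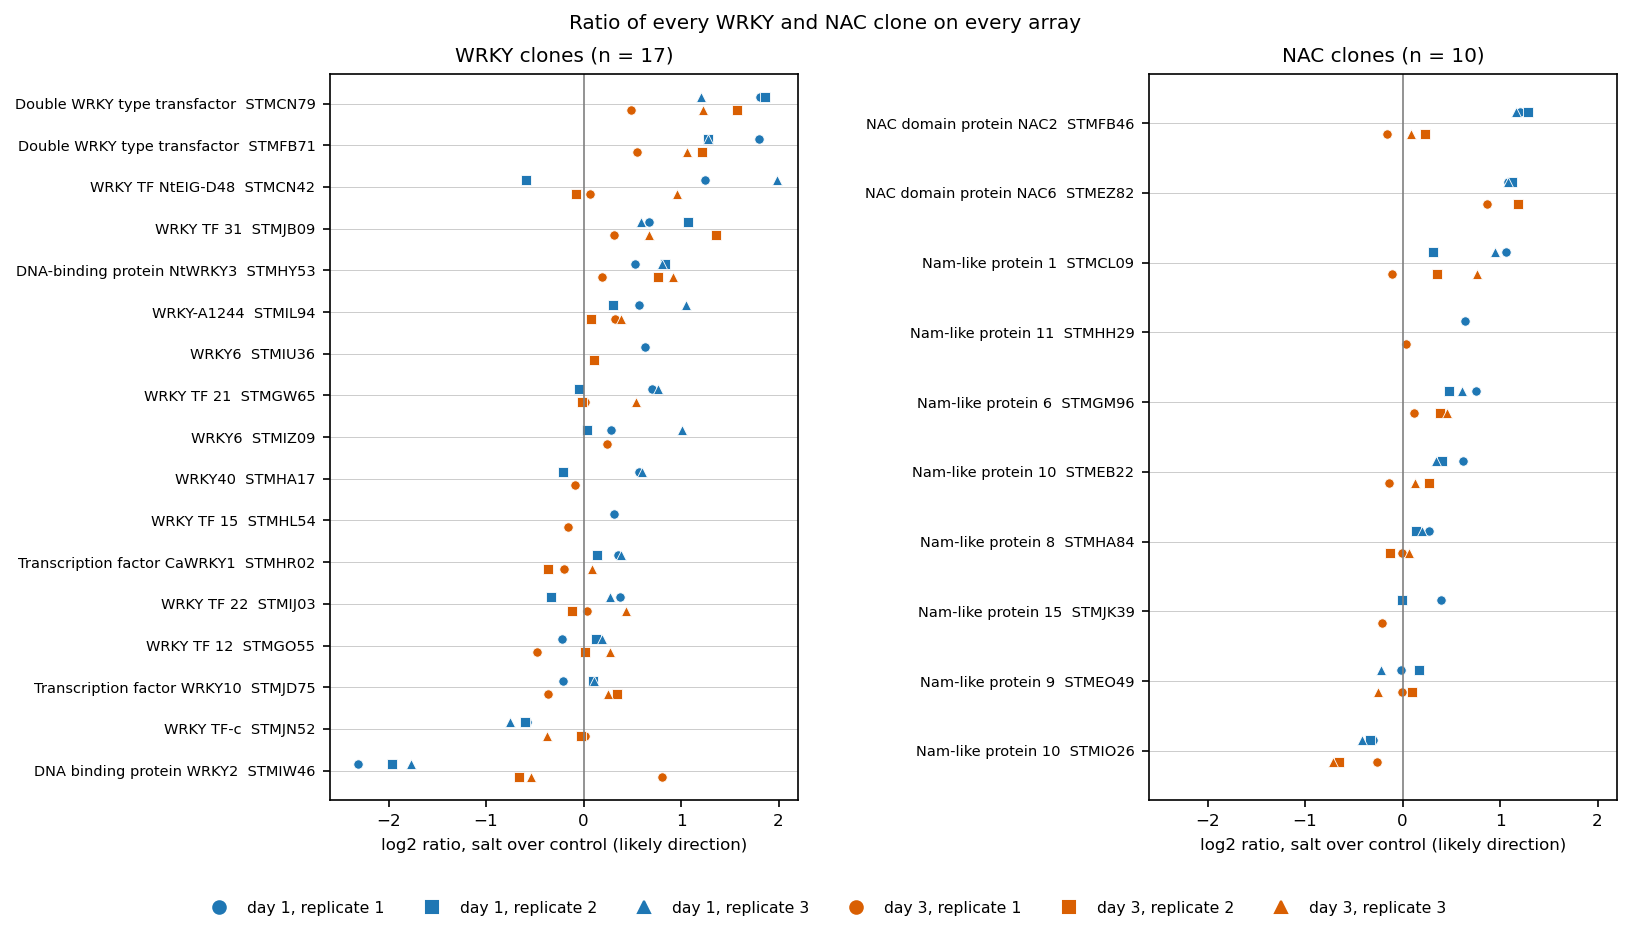
Log2 ratio of salt over control (horizontal axis) for each WRKY clone (left) and NAC clone (right), with 1 point per array, colour for the day and symbol for the replicate. Clones are ordered by their mean on day 1. The day 1 points of STMFB46 and STMEZ82 lie close together above 1, and the replicate 2 point of STMCN42 lies far below its other day 1 points.

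On day 1, 5 of 15 tested WRKY clones were higher under salt and 2 were lower at an adjusted p under 0.05 (limma, Benjamini-Hochberg over all clones). Over the whole array 18.5% of clones were called, as 8.11% of 9738 tested clones were higher and 10.4% were lower. The median fitted ratio of the WRKY clones was 0.34, against 0.03 over all clones. The higher clones were a pair named after a potato double WRKY factor, and the clones named WRKY31, NtWRKY3 and WRKY-A1244.

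The largest rise was that of STMCN79, annotated as the potato double WRKY type transfactor, a factor with a pair of WRKY domains. Its ratios on day 1 were 1.81, 1.86 and 1.20 on replicates 1, 2 and 3. All lay well above 0, and the fitted ratio of 1.71 (SE 0.18, adjusted p = 0.000374), 3.28-fold, ranked 18 from the top among all tested clones. STMFB71 carries the same annotation and belongs to the same assembled transcript in the deposited table, so both are likely to report on 1 gene. It had ratios of 1.80, 1.28 and 1.28 and a fitted ratio of 1.47 (SE 0.17, adjusted p = 0.000551), ranked 35. The gap between these clones was between 0.01 and 0.58 on the 6 arrays.

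STMJB09 is named after Arabidopsis WRKY31. It had ratios of 0.68, 1.08 and 0.59 on day 1, and rose by 0.89 (SE 0.13, adjusted p = 0.0016). STMHY53, named after tobacco NtWRKY3, had ratios of 0.53, 0.84 and 0.81, and rose by 0.75 (SE 0.15, adjusted p = 0.00908). STMIL94, named after pepper WRKY-A1244, was less even, with 0.57, 0.30 and 1.05 and a fitted rise of 0.58 (SE 0.13, adjusted p = 0.0148). In these 3 clones every array of day 1 lay above 0.

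Both lower WRKY clones were below 0 on every array of day 1. STMJN52, named after pepper WRKY transcription factor-c, had ratios of -0.58, -0.60 and -0.75 and fell by 0.63 (SE 0.12, adjusted p = 0.00798). STMIW46, named after grape WRKY2, had ratios of -2.31, -1.96 and -1.77 and fell by 2.07 (SE 0.25, adjusted p = 0.000698), which is 4.21-fold and ranked 52 from the bottom of the array. Its annotation is at odds with itself. The table gives it a gene ontology term for a structural constituent of the ribosome, while the other 16 WRKY clones carry the terms for transcription factor activity and regulation of transcription. Without STMIW46, whose place in the family is uncertain, STMJN52 was the only lower WRKY clone of day 1.

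The other 8 tested WRKY clones passed neither way on day 1. STMGW65, named after Arabidopsis WRKY21, had ratios of 0.70, -0.05 and 0.77 and a fitted ratio of 0.39 (SE 0.14, adjusted p = 0.0981). STMHR02, named after pepper CaWRKY1, had 0.35, 0.14 and 0.39 and a fitted ratio of 0.25 (SE 0.12, adjusted p = 0.185). STMCN42 had the widest spread of all members. This clone is named after tobacco NtEIG-D48, and its ratios were 1.25, -0.59 and 1.98, with an SD of 1.32. The array with salt in Cy5 thus went against both arrays with salt in Cy3, and the fitted ratio of 0.65 (SE 0.27) had an adjusted p of 0.137. It was 1.32 (adjusted p = 0.0524) without replicate 2 of day 1 and 0.33 (adjusted p = 0.515) without replicate 3.

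Dye orientation moved with several WRKY values. The dye term had an unadjusted p under 0.05 in 5 of 15 WRKY clones and in 0 of 8 NAC clones, against 18.7% of 9742 clones on the array. It passed adjustment in 0 clones of the array. The 5 clones were STMCN42 with a dye term of -1.40, STMHA17 with -0.79, STMGW65 with -0.53, STMIJ03 with -0.51 and STMJB09 with 0.65, where a positive value means a higher ratio with salt in Cy5. The part of the dyes in the ratios of single clones was not tested further. Replicate 2 is the only array of a day with salt in Cy5, so the dye and that replicate cannot be told apart within a day.

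STMHA17, named after soybean WRKY40, had day 1 ratios of 0.57, -0.21 and 0.60, and STMIZ09, named after soybean WRKY6, had 0.28, 0.03 and 1.01. STMIU36 shares the name and the assembled transcript of STMIZ09, and was measured on only 1 array of day 1, at 0.64. STMIJ03, STMGO55 and STMJD75 had fitted day 1 ratios between 0.02 and 0.05. STMIJ03 is named after Arabidopsis WRKY22, which acts in a MAP kinase pathway of flagellin perception in that plant. STMGO55 is named after Arabidopsis WRKY12, a repressor of wall thickening in its stem pith, and STMJD75 after rice WRKY10. STMHL54, named after Arabidopsis WRKY15, had 0.31 on replicate 1 and no other value on day 1, and was not tested.

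The day 1 calls of STMCN79, STMFB71, STMJB09 and STMIW46 held under every alternative fit that was run. Without replicate 2 of day 1, the calls of STMHY53 (adjusted p = 0.139), STMIL94 (adjusted p = 0.13) and STMJN52 (adjusted p = 0.178) were lost, leaving 3 higher and 1 lower WRKY clones. The share of all clones called fell as well in that fit, from 18.5% to 6.31% (2.02% higher and 4.3% lower). Over all 13 alternatives the day 1 adjusted p ranged from 0.00168 to 0.139 for STMHY53, from 0.00926 to 0.13 for STMIL94 and from 0.00305 to 0.178 for STMJN52. Without replicate 3 of day 1, STMHY53 (adjusted p = 0.0518) and STMIL94 (adjusted p = 0.0999) were lost, and STMIL94 also with each day on its own arrays (adjusted p = 0.0658). STMGW65 passed on day 1 when replicate 1 of day 3 was left out, at 0.36 (adjusted p = 0.0273).

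On day 3, 4 of 13 tested WRKY clones were higher and 0 were lower with limma, also at an unadjusted p under 0.05. The array as a whole had 6.41% of 9032 clones called, 1.96% higher and 4.45% lower. The 4 were STMCN79, STMFB71, STMJB09 and STMHY53, all of which had also risen on day 1. STMCN79 and STMFB71 likely report on the same gene, so this count, like that of day 1, is of clones and not of genes. The median fitted ratio of the WRKY clones was 0.09, against 0.01 over all clones.

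STMCN79 had day 3 ratios of 0.49, 1.57 and 1.23, with a fitted ratio of 1.19 (SE 0.18, adjusted p = 0.00385). STMFB71 had 0.55, 1.22 and 1.07, with a fitted ratio of 0.96 (SE 0.17, adjusted p = 0.00919). In both clones of the double WRKY factor, replicate 1 was the lowest array of day 3 and still lay above 0. STMJB09 had 0.32, 1.36 and 0.68 with a fitted ratio of 0.89 (SE 0.13, adjusted p = 0.00316), and STMHY53 had 0.19, 0.76 and 0.92 with a fitted ratio of 0.65 (SE 0.15, adjusted p = 0.0392). The same array was the lowest in these clones too.

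Without replicate 1 of day 3, where 10.5% of all clones were called, the 4 higher clones had fitted ratios of 1.40 (STMCN79), 1.14 (STMFB71), 1.02 (STMJB09) and 0.84 (STMHY53), and STMIW46 passed as lower at -0.60 (adjusted p = 0.0412). Without replicate 2 of day 3, 0 of 13 WRKY clones passed (limma), and the array as a whole then had 28 higher and 144 lower of 7815 clones, or 2.2%. The adjusted p without that array was 0.148 for STMCN79, 0.366 for STMFB71, 0.213 for STMJB09 and 0.438 for STMHY53. Over the alternatives the lowest adjusted p was 0.00114, 0.003, 0.00135 and 0.00535 in the same order, and the values without replicate 2 were the highest. In fits without the dye term, or with each day on its own arrays, only the 2 clones of the double WRKY factor passed. STMHY53 was also lost without each array of day 1 (adjusted p = 0.106, 0.0829 and 0.0521) and without replicate 3 of day 3 (adjusted p = 0.135).

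Of the WRKY clones that had changed on day 1 and did not pass on day 3, STMIL94 had day 3 ratios of 0.32, 0.08 and 0.38, with a fitted ratio of 0.20 (SE 0.13, adjusted p = 0.492). STMJN52 had 0.02, -0.03 and -0.38, with a fitted ratio of -0.11 (SE 0.12, adjusted p = 0.732). STMIW46 was split on day 3, at 0.80 on replicate 1 and at -0.66 and -0.54 on replicates 2 and 3, with a fitted ratio of -0.19 (SE 0.25, adjusted p = 0.776). STMHR02 had -0.20, -0.36 and 0.09 and a fitted ratio of -0.20 (SE 0.12, adjusted p = 0.407). The day 3 ratios of the other 5 tested WRKY clones were fitted between -0.04 and 0.12, and 4 WRKY clones had too few values for a test on day 3. Without replicate 1 of day 3, STMIL94 was at 0.23 (adjusted p = 0.352), STMJN52 at -0.20 (adjusted p = 0.339) and STMHR02 at -0.14 (adjusted p = 0.498). The 5 others then lay between 0.14 and 0.44 with none past the threshold, the highest being STMCN42 (0.44, adjusted p = 0.276).

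In the NAC family 5 of 8 tested clones were higher on day 1, against 8.11% of the clones of the array. None was lower at an adjusted p under 0.05 with limma (0 of 8), and 1 was lower at an unadjusted p under 0.05. The median fitted ratio of the NAC clones was 0.54, against 0.03 over all clones. The higher clones were those named NAC2, NAC6 and Nam-like proteins 1, 6 and 10. In the gene ontology terms of the table, 9 of the 10 NAC clones are filed under development and the other carries no term.

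STMFB46 is named after NAC2 of the wild potato Solanum demissum. Its day 1 ratios were 1.21, 1.28 and 1.17, with an SD of 0.06, and it rose by 1.25 (SE 0.12, adjusted p = 0.000246), or 2.37-fold. STMEZ82 is named after soybean NAC6, a factor linked in that plant to cell death under osmotic and endoplasmic reticulum stress. It had 1.08, 1.13 and 1.08, with an SD of 0.03, and rose by 1.12 (SE 0.12, adjusted p = 0.000595). These clones had the narrowest spread among the members that rose. They ranked 61 and 94 from the top of the array, and their day 1 calls held under every alternative fit in which they were tested.

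The other risers are named after petunia proteins that resemble NAM, whose loss leaves petunia embryos without a shoot meristem. STMGM96, Nam-like protein 6, had 0.75, 0.48 and 0.61 and rose by 0.61 (SE 0.12, adjusted p = 0.00938). STMCL09, Nam-like protein 1, had 1.06, 0.32 and 0.95 and rose by 0.72 (SE 0.18, adjusted p = 0.0251). STMEB22, Nam-like protein 10, had 0.62, 0.40 and 0.34 and rose by 0.47 (SE 0.13, adjusted p = 0.0329). All 3 were above 0 on every array of day 1, and their calls depended on single arrays. Without replicate 1 or without replicate 2 of day 1 only STMFB46 and STMEZ82 passed, and without replicate 3 these and STMGM96. The share of all clones called on day 1 was 11.2%, 6.31% and 12.2% in these fits. STMEB22 was also lost without replicate 2 of day 3 (adjusted p = 0.0744), without the dye term (adjusted p = 0.0534) and with each day on its own arrays (adjusted p = 0.0745), and STMEB22 and STMCL09 when the arrays were scaled to equal spread (adjusted p = 0.052 and 0.0597). Over all alternatives their adjusted p ranged from 0.00272 to 0.0883 for STMGM96, from 0.00151 to 0.157 for STMCL09 and from 0.0143 to 0.158 for STMEB22.

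STMIO26 is also annotated as Nam-like protein 10, but comes from another assembled transcript than STMEB22. Its day 1 ratios of -0.30, -0.33 and -0.42 gave a fitted ratio of -0.36 (SE 0.13, adjusted p = 0.086). The clones lay on opposite sides of 0 on every array of day 1, and the largest gap over the 6 arrays was 0.92. STMIO26 passed on day 1 when replicate 1 of day 3 was left out, at -0.34 (adjusted p = 0.0306). STMHA84, Nam-like protein 8, had 0.27, 0.14 and 0.20 and a fitted ratio of 0.18 (SE 0.11, adjusted p = 0.294), and STMEO49, Nam-like protein 9, had -0.02, 0.17 and -0.22 and a fitted ratio of 0.02 (SE 0.12, adjusted p = 0.938). STMHH29 and STMJK39, Nam-like proteins 11 and 15, were not tested. The first had 0.64 on replicate 1 of day 1, and the second had 0.39 and -0.002 on replicates 1 and 2.

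On day 3, 1 of 8 tested NAC clones was higher and 1 was lower, against 1.96% and 4.45% of the array. The higher one was STMEZ82, with ratios of 0.87 and 1.18 on replicates 1 and 2 and no value on replicate 3, and a fitted ratio of 1.03 (SE 0.14, adjusted p = 0.00366). It ranked 38 from the top. The lower one was STMIO26, with -0.26, -0.65 and -0.71 and a fitted fall of 0.55 (SE 0.13, adjusted p = 0.0365). Both kept the sign they had on day 1.

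The call of STMEZ82 on day 3 held in the 10 alternatives in which it was tested, with an adjusted p between 0.00188 and 0.0367. The looser threshold of 0.1, under which a call cannot be lost, is among them. Leaving out replicate 1 or 2 of day 3 leaves that clone a single array of the day and no test. STMIO26 was less firm. Without replicate 1 of day 3 its ratio was -0.68 (adjusted p = 0.00769), and without replicate 2 or 3 of day 3 its call was lost (adjusted p = 0.531 and 0.138). It was also lost without each array of day 1 (adjusted p = 0.094, 0.0749 and 0.0584), without the dye term (adjusted p = 0.0545) and with each day on its own arrays (adjusted p = 0.126). Its adjusted p over the alternatives ranged from 0.00769 to 0.531.

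STMFB46 had fallen back near 0 on day 3, with ratios of -0.16, 0.23 and 0.09 and a fitted ratio of 0.08 (SE 0.12, adjusted p = 0.791). STMGM96 had 0.11, 0.38 and 0.46 and a fitted ratio of 0.31 (SE 0.12, adjusted p = 0.22). STMCL09 had -0.11, 0.35 and 0.77 and a fitted ratio of 0.28 (SE 0.18, adjusted p = 0.483). STMEB22 had -0.14, 0.27 and 0.13 and a fitted ratio of 0.10 (SE 0.13, adjusted p = 0.768). When replicate 1 of day 3 was left out, STMCL09 passed at 0.56 (adjusted p = 0.0217). STMGM96 was then at 0.42 (adjusted p = 0.0557), STMEB22 at 0.20 (adjusted p = 0.365) and STMFB46 at 0.16 (adjusted p = 0.418), while STMHA84 and STMEO49 were at -0.03 and -0.08.

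**Figure D2:**
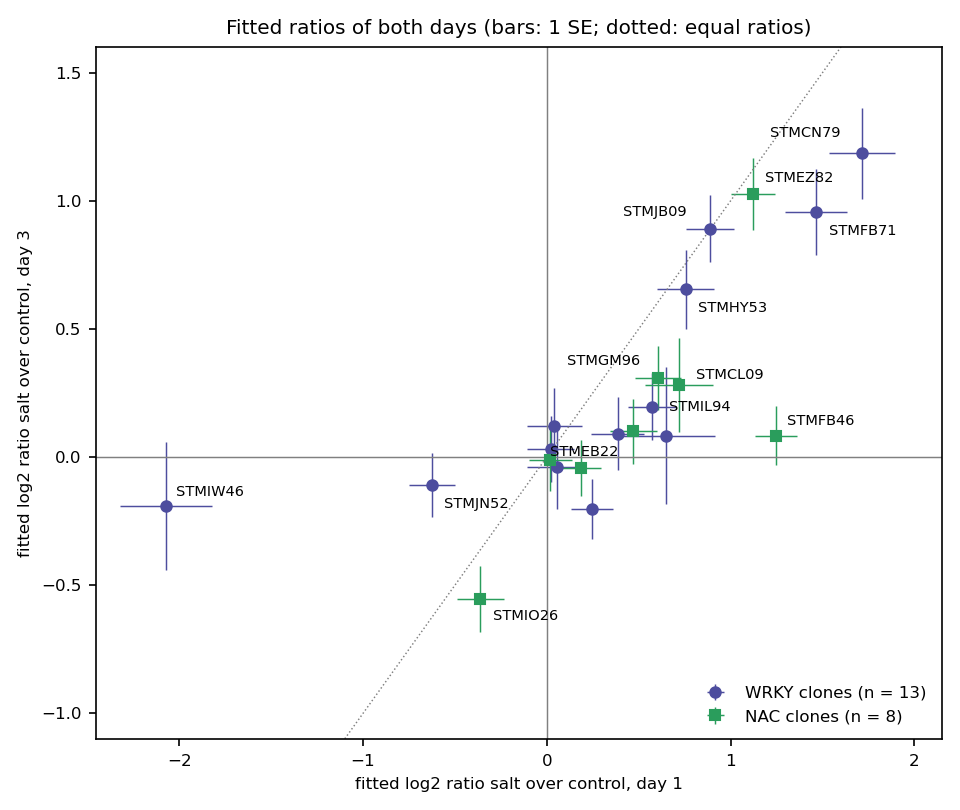
Fitted log2 ratio of salt over control on day 1 (horizontal axis) and day 3 (vertical axis) for the 13 WRKY clones and 8 NAC clones tested on both days. Bars are 1 SE, the dotted line marks equal ratios, and clones past the threshold on either day are named. STMJB09 and STMEZ82 lie near the dotted line, while STMFB46 and STMIW46 lie far from it and close to 0 on day 3.

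The change from day 1 to day 3 was tested as a contrast of the same fit. It passed in 1 of 13 WRKY clones and 1 of 8 NAC clones, against 11.6% of 9030 clones on the array, of which 6.46% had a higher and 5.12% a lower ratio on day 3. The ratio of STMFB46 fell by 1.17 between the days (SE 0.16, adjusted p = 0.00318), and did so under every alternative. That of STMIW46 was 1.88 higher on day 3 than on day 1 (SE 0.34, adjusted p = 0.00955). Without replicate 1 of day 1 this had an adjusted p of 0.0858, and over the alternatives the value lay between 1.42 and 2.18 with an adjusted p from 0.00147 to 0.0858. Without replicate 1 of day 3, the array on which STMIW46 was high, the change was 1.42 (adjusted p = 0.00324).

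For the other members the test of the days did not pass. In the double WRKY clones the ratio was lower on day 3 by 0.53 (STMCN79, SE 0.24, adjusted p = 0.215) and by 0.51 (STMFB71, SE 0.23, adjusted p = 0.208) on the log2 scale. The SD over the 3 arrays of day 3 was 0.56 in STMCN79 and 0.35 in STMFB71. The change was smaller than its SE in STMJB09 (0.002, SE 0.18), STMHY53 (-0.10, SE 0.21) and STMEZ82 (-0.10, SE 0.18). All 8 tested NAC clones had a lower ratio on day 3 than on day 1, with changes from -1.17 to -0.03 and a median of -0.26. Over all clones the median was -0.03, and 4167 of 9030 had a higher ratio on day 3. These 8 clones share the same 6 arrays and are not independent of each other.

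Averaged over both days, 5 of 13 WRKY clones were higher and 2 lower, and 4 of 8 NAC clones were higher and 1 lower, against 7.26% and 10.6% of 9028 clones, 17.8% in all. The WRKY clones were those called on day 1. In the NAC family STMEB22 was no longer called (0.28, SE 0.09, adjusted p = 0.0668), and STMIO26 was lower by this measure (-0.46, SE 0.09, adjusted p = 0.00931). The highest averages belonged to STMCN79 (1.45, SE 0.13, adjusted p = 0.00014), STMFB71 (1.21, SE 0.12, adjusted p = 0.000256) and STMEZ82 (1.07, SE 0.09, adjusted p = 0.000209). These and STMFB46, STMHY53, STMIW46 and STMJB09 stayed past the threshold in the average with any single array left out, as far as they could be tested. Without replicate 2 of day 1, the averages of STMCL09 (adjusted p = 0.0656), STMGM96 (0.0599), STMIO26 (0.0823), STMIL94 (0.125) and STMJN52 (0.228) did not pass, and without replicate 2 of day 3 these had adjusted p = 0.411, 0.18, 0.166, 0.294 and 0.182. STMCL09, STMIL94 and STMJN52 also did not pass without replicate 3 of day 1 (adjusted p = 0.0662, 0.0574 and 0.0624), nor STMCL09 and STMJN52 without replicate 1 of day 1 (adjusted p = 0.123 and 0.055). Leaving out replicate 1 of day 3 let the averages of STMCN42 (0.52, adjusted p = 0.0336), STMGW65 (0.31, adjusted p = 0.0151) and STMEB22 (0.33, adjusted p = 0.0178) pass.

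**Figure D3:**
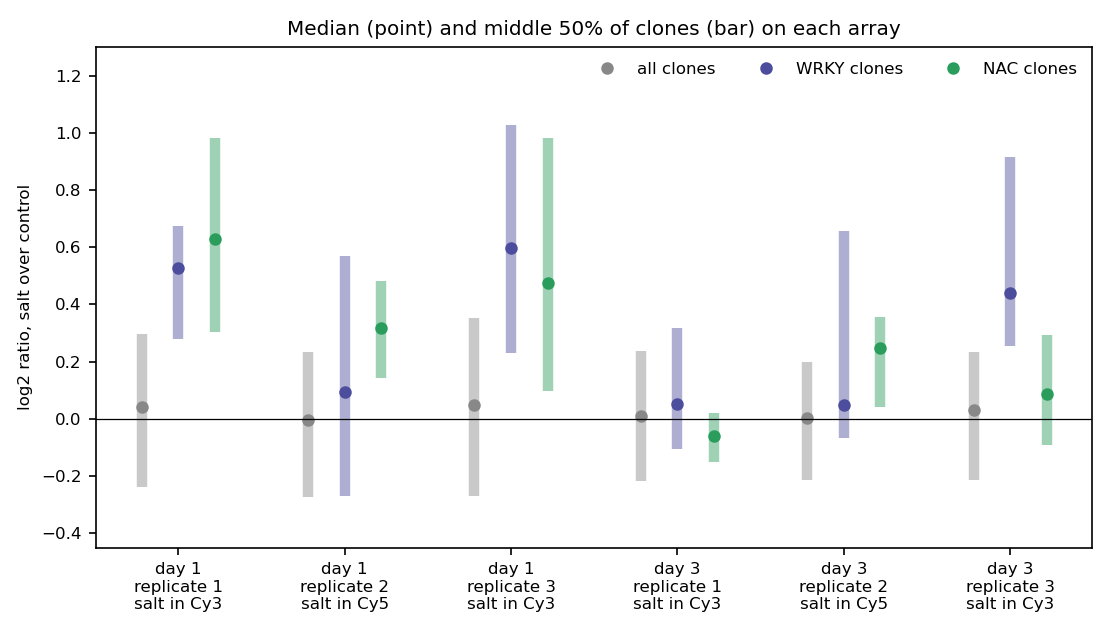
Log2 ratio of salt over control (vertical axis) on each of the 6 arrays, with the median (point) and the interquartile range (bar) of all clones, WRKY clones and NAC clones. On replicate 1 of day 3 the NAC median is -0.06 and lies below that of all clones, and on every other array both family medians lie above it.

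Array by array, the WRKY medians on day 1 were 0.53, 0.09 and 0.60 on replicates 1, 2 and 3, and those of the NAC clones were 0.63, 0.32 and 0.48. On day 3 the WRKY medians were 0.05, 0.05 and 0.44 and the NAC medians -0.06, 0.25 and 0.09. The medians of all clones lay between -0.005 and 0.049 on the 6 arrays. Thus the arrays with salt in Cy3 gave the higher family medians on day 1, and in the WRKY family replicate 2 was well below the others. Of the clones measured on all 3 arrays of day 1, 7 of 15 WRKY clones and 6 of 8 NAC clones were above 0 on each of them, against 24.9% of the array. On day 3 these were 5 of 13 and 1 of 7, against 19.4%.

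The authors' deposited table holds a one-sample test for each clone and day. For day 1 the authors' deposited table gave p under 0.05 to 6 of 15 WRKY clones and 6 of 9 NAC clones, and to 20% of all clones. For day 3 the authors' deposited table did so for 1 of 13 WRKY clones, 0 of 8 NAC clones and 11.2% of all clones.

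Clones of pathways tied to these families were counted by lists of words in the names, with the members left out. The list of other stress transcription factors (ethylene response, MYB, bZIP, homeobox and heat shock factors) had 12 of 56 tested clones higher and 2 lower on day 1, against 8.11% and 10.4% of all clones. Its median was 0.19, against 0.03 over all clones. Homeobox clones STMEF08 and STMEK10 rose by 1.54 and 1.47 (adjusted p = 0.000107 and 0.000154). Ethylene response factor 5 (STMIK39), a defence-related regulator, rose by 2.29 (adjusted p = 0.000208). On day 3 this list had 3 of 49 higher and 0 lower (6 at an unadjusted p under 0.05, limma), against 1.96% and 4.45% of all clones, with STMIK39 at 1.54. The homeodomain leucine zipper clones STMJL63 (0.80, adjusted p = 0.0113) and STMIZ28 (0.64, adjusted p = 0.0118) were the others. STMJL63 had been below 0 on every array of day 1 (-0.38, -0.66 and -0.66). Without replicate 2 of day 3, STMIK39, STMJL63 and STMIZ28 did not pass (adjusted p = 0.0886, 0.497 and 0.443). STMJL63 and STMIZ28 did not pass with each day on its own arrays either (adjusted p = 0.0675 and 0.0709).

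Among MAP kinase cascade clones, which include kinases that phosphorylate WRKY factors in other plants, 3 of 22 were higher and 1 lower on day 1, which is close to the 18.5% of all clones called. The higher ones were the kinases STMHR53 (0.71, adjusted p = 0.00405) and STMGQ87 (0.57, adjusted p = 0.00788), and MAP kinase phosphatase 1, which switches such kinases off (STMHE53, 0.72, adjusted p = 0.00547). Without replicate 2 of day 1 these 3 clones did not pass (adjusted p = 0.0721 for STMHR53, 0.205 for STMGQ87 and 0.0704 for STMHE53), nor did STMGQ87 without replicate 1 of day 1 (adjusted p = 0.0537). All 3 also missed the threshold with each day on its own arrays (adjusted p = 0.102, 0.0569 and 0.091), and STMHR53 and STMHE53 without the dye term (adjusted p = 0.123 and 0.145). On day 3, 0 of 21 passed with limma, and 1 was higher and 1 lower at an unadjusted p under 0.05. In the list of calmodulin and other partners 2 of 17 were higher on day 1 and 1 of 15 on day 3, with 0 lower on either day, also at an unadjusted p under 0.05. Of all clones, 8.11% were higher on day 1 and 1.96% on day 3, so these few clones give no result about the list. Calmodulin-like protein 1, a calcium sensor (STMER65), was higher on both days, by 1.02 (adjusted p = 0.00109) and 1.21 (adjusted p = 0.000844). STMIG47, annotated with an IQ calmodulin-binding region and a BAG domain, was higher on day 1 by 0.48 (adjusted p = 0.0437), a call that was lost in 7 of 12 alternative fits.

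Defence genes of classes that WRKY factors control in other plants went both ways. On day 1, 8 of 36 were higher and 4 lower, against 8.11% and 10.4% of all clones. Phenylalanine ammonia-lyase, the entry enzyme of phenylpropanoid synthesis, was at 1.24 (STMGT03, adjusted p = 0.00115, or 0.0524 without replicate 2 of day 1). A class 1 chitinase clone was at 2.56 (STMHO72, adjusted p = 0.00262), and another with this name was at -1.22 (STMJI49, adjusted p = 0.000402). On day 3, 4 of 32 were higher and 5 lower, against 1.96% and 4.45% of all clones. Pathogenesis-related protein 10 rose by 1.51 (STMDW19, adjusted p = 0.000363), and endochitinase clones STMIX82 and STMIS93 fell by 2.10 and by 1.48 (adjusted p = 8.3e-05 and 0.000401).

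Senescence and dehydration genes, classes linked to stress NAC factors, had 6 of 35 clones higher and 0 lower on day 1 (4 at an unadjusted p under 0.05, limma). On day 3 they had 2 of 31 higher and 0 lower (again 4). The total called was near the share of all clones called, 18.5% on day 1 and 6.41% on day 3. By direction, 8.11% of all clones were higher and 10.4% lower on day 1, and 1.96% and 4.45% on day 3, while every call in the list was higher. The clones STMDG60 and STMCR18, named after the dehydration-induced RD22, were both at 1.34 on day 1 (adjusted p = 0.000246 and 0.000264), and at 0.87 and 0.97 on day 3 (adjusted p = 0.00315 and 0.00195, or 0.0639 and 0.0724 without replicate 2 of day 3). A clone named as a Clp protease proteolytic subunit (STMIX54) was at 0.84 on day 1 (adjusted p = 0.00131).

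**Figure D4:**
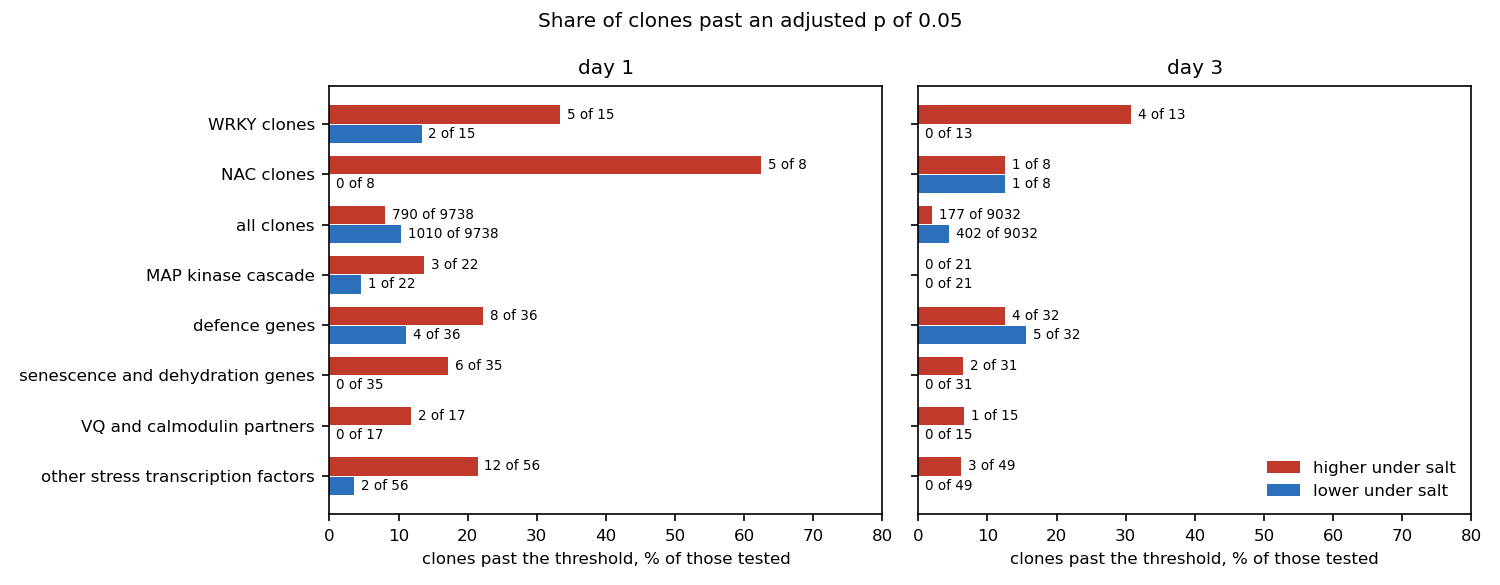
Percentage of tested clones higher (red) and lower (blue) under salt at an adjusted p under 0.05, for the WRKY clones, the NAC clones, all clones and 5 lists of related genes, on day 1 (left) and day 3 (right). Numbers beside the bars are clones called of clones tested, with 5 of 8 NAC clones and 5 of 15 WRKY clones higher on day 1.

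The list counts moved with single arrays left out, except that of the calmodulin partners on day 3, which was 1 in each such fit. The share of all clones called moved too, from 18.5% on day 1 to 6.31% without replicate 2 of day 1, 11.2% without replicate 1 and 12.2% without replicate 3. Without replicate 2 of day 1, the clones called on day 1 in either direction numbered 5 among the other stress transcription factors (14 on all arrays), 0 in the MAP kinase list (4), 3 among defence genes (12), 3 among senescence and dehydration genes (6) and 1 among the calmodulin partners (2). With replicate 1 of day 1 left out the counts were 9 for the stress factors, 2 for the MAP kinases, 3 for senescence and dehydration and 1 for calmodulin, and without replicate 3 of day 1 they were 6 for defence, 3 for senescence and dehydration and 1 for calmodulin. Leaving out replicate 1 of day 3 raised the senescence and dehydration count to 10 on day 1 and 5 on day 3. The MAP kinase count of day 3 rose to 1, that of the stress factors to 4 and that of defence genes to 10, and the share of all clones called rose to 26.6% on day 1 and 10.5% on day 3. Without replicate 2 of day 3, where 2.2% of all clones were called, the day 3 counts were 0 for the stress factors (3), 0 for senescence and dehydration (2) and 5 for defence (9), and the day 1 counts were 4 for senescence and dehydration and 1 for calmodulin.

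The clones most like the leading member of each family were sought among 5800 annotated clones with values on all 6 arrays, by the root mean square difference of the log2 ratios. Nearest to STMCN79 were a protein kinase (STMIK40, 0.26), the RING-H2 finger protein ATL3F, a type of ubiquitin ligase (STMIU24, 0.31), and a Nudix hydrolase (STMHE88, 0.35). Nearest to STMFB46 were both clones named as xylose isomerase (STMGR30, 0.13, and STMCK24, 0.14) and a clone like F13M7.4 (STMCM22, 0.14). For STMIW46, looked up after its values were seen, they were a Rubisco small subunit clone (STMCX03, 0.17), a photosystem II component (STMIX78, 0.19) and a GTP-binding-like protein (STMIQ66, 0.21). STMCX03 had day 1 ratios of -2.13, -1.88 and -1.82, and day 3 ratios of 0.62, -0.38 and -0.35, the same alternation of signs as in STMIW46. Other chloroplast clones did not all share it. On day 3 the medians on replicates 1, 2 and 3 were 0.99, -0.28 and -0.35 over 21 Rubisco small subunit clones, 0.91, -0.52 and -0.46 over 5 carbonic anhydrase clones and 0.68, -0.01 and -0.17 over 27 plastid ribosomal protein clones. Over 15 clones of chlorophyll a/b-binding proteins, which harvest light, they were -0.78, -0.45 and -0.57, below 0 on each array and lowest on replicate 1. The day 1 medians of all 4 lists were below 0 on each array. The RNA actually bound by STMIW46 was not tested.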

How the data were processed

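Leaf RNA of salt-watered and control plants was hybridised to 6 two-colour cDNA arrays, 3 per day. Per the labels' protocols, RNA with an integrity number under 7 was excluded and 15 micrograms per sample were labelled. The authors deposited log2 ratios (base taken, not stated) and a one-sample test p-value per clone and day. Scanner background treatment and array normalization: not given in the sources used here. Ratios entered as deposited, with the rows of both tables matched on the 6 ratios (10499 rows).

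The fit used R 4.3.3 and limma 3.58.1 and gave each clone a coefficient per day and a dye term, by least squares for each pattern of missing values. Moderation and Benjamini-Hochberg adjustment covered all clones, at an adjusted p under 0.05, two-sided. The spread is estimated once per clone over both days. The fit was tested on simulated data with 200 changed clones per day. It recovered 13% of changes of 0.5 on day 1 and 14% on day 3, and 92% of changes of 1 on either day. The simulation held fewer changed clones than were called on either day, so these shares need not hold for the real arrays. Tables and figures used Python 3.11.15, pandas 2.3.3 and matplotlib 3.10.9.

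Members and word lists were chosen with earlier results of these data known. Named with all values were members past the threshold and, per family and day, the 3 others with the smallest p. From each list up to 3 called clones with the smallest p were named. Arrays of the same replicate number came from different plants on each day and were not paired in the reported fit. Their deviations from the day means correlated at 0.046, 0.596 and 0.451 for replicates 1, 2 and 3. Pairs of unlike replicate numbers correlated between -0.521 and 0.198. What replicates 2 and 3 had in common across the days was not tested. Other settings tried were no dye term, scaling to equal median absolute deviation, median centring, clones on all arrays, days apart, an adjusted p under 0.1, a replicate block and each array left out. No clone sequences were used here.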

Additional observations from a re-analysis of the deposited data

Results flagged for a closer look

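In 2 members the ratio of salt over control differed between the days by the test of the difference itself. STMFB46 (NAC2) had a difference, day 3 minus day 1, of -1.17 (SE 0.16, limma adjusted p = 0.00318). Its 3 arrays of day 1 lay between 1.17 and 1.28 and those of day 3 between -0.16 and 0.23. STMIW46 (annotated as WRKY2) had a difference of 1.88 (SE 0.34, limma adjusted p = 0.00955). Its arrays lay between -2.31 and -1.77 on day 1 and between -0.66 and 0.80 on day 3. The highest was replicate 1 of day 3. Over all clones that array correlated at r = 0.03, -0.09 and 0.01 with the day 1 arrays and at 0.48 and 0.52 with the others of its day. The same contrast passed in 11.6% of the clones of the array.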

How the results depend on the processing

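Across 13 alternatives for the days, and 12 for their difference and average, the 32 calls of single members gave 395 recomputed values. Of these 341 kept direction and call, 54 kept direction and lost the call, and 0 reversed. The looser threshold, an adjusted p under 0.1, is among these alternatives for each call. It reuses the reported fit, so a call could be neither lost nor reversed there. On clones measured on all 6 arrays the fitted values of the tested members were unchanged, and only the moderation and adjustment differed. Counts of called clones moved more. On day 3 the WRKY count of 4 became 2 without the dye term and 2 with each day on its own arrays, and the NAC count of 2 became 1 in both of these fits and 1 on clones measured on all 6 arrays. The day 1 NAC count of 5 became 3 with arrays scaled to equal median absolute deviation. At an adjusted p under 0.1 the WRKY count for the difference was 2 in place of 1. With single arrays left out, WRKY counts lay between 4 and 8 on day 1, 0 and 5 on day 3, 0 and 1 for the difference and 5 and 9 for the average, and NAC counts between 2 and 6, 0 and 2, 1 and 1, and 1 and 5. The share of all clones called moved in the same fits, from 6.31% to 26.6% on day 1, 2.2% to 10.5% on day 3, 3.54% to 13.2% for the difference and 6.91% to 30.6% for the average. The cause of these moves was not tested.

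Direction changed in uncalled members near 0. STMEO49 on day 1 was at -0.0233 without the dye term and with each day on its own arrays, at -0.00337 with arrays centred on their medians, and between -0.0265 and 0.074 with single arrays left out, below 0 without replicate 1 or 2 of day 1. With single arrays left out, the day 3 values lay between -0.0138 and 0.56 in STMCL09 and between -0.047 and 0.197 in STMEB22, both below 0 without replicate 2 of day 3. A replicate block left the called members at 7 WRKY and 5 NAC clones on day 1, 4 and 2 on day 3, 1 and 1 for the difference and 7 and 5 for the average. Of 130 recomputed list counts, 99 stayed within 1.5 times of the reported count. Signal over background could not be examined from ratios.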
